A study of Mus musculus with 17 samples.

Results

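The MHC class II presentation genes were followed in germinal centre (GC) B cells: the chain genes *H2-Aa*, *H2-Ab1* and *H2-Eb1*, the invariant chain *Cd74*, the peptide-editing genes *H2-DMa*, *H2-DMb1*, *H2-DMb2*, *H2-Oa* and *H2-Ob*, and the transactivator *Ciita*. These 10 genes were chosen by symbol for their roles in the pathway, with earlier results of these data known. Each symbol marked 1 row in the count tables, which held 21848 genes in all 4 pools of cells used here, and all 10 passed the filter on low counts in every comparison.

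MHC class II molecules carry peptides of internalised antigen to the B cell surface, where T follicular helper cells read them. The chains *H2-Aa* and *H2-Ab1* form I-A, and *H2-Eb1* encodes the beta chain of I-E, whose alpha chain gene *H2-Ea* is not functional in mice of the b haplotype such as C57BL/6. *Cd74* blocks the groove until its CLIP peptide is removed by the DM complex (*H2-DMa* with *H2-DMb1* or *H2-DMb2*), and the DO complex (*H2-Oa* with *H2-Ob*) inhibits DM. *Ciita* is the coactivator that the class II promoters depend on. In the GC, B cells take up antigen and present it in the light zone (LZ) and divide in the dark zone (DZ).

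The cells came from lymph nodes of CD45.1 hosts that were primed with ovalbumin (OVA), received B1-8hi B cells, which bind the hapten NP, and were immunized with NP-OVA. Anti-DEC-OVA, an antibody that carries OVA to the receptor DEC-205 and so loads it on the transferred B cells that have this receptor (the other transferred cells were *Ly75*-/- and lacked it), was given at 7 days post-immunization. In the time course, 9 mice were taken at 0 h. At 48 h there were 6 mice without and 9 with anti-DEC-OVA, and at 72 h 8 without and 7 with it, called untreated and treated here. They came from 2 experiments, a larger one of 25 mice and a smaller one of 14 mice, each sequenced as 1 pool that held every group. In a further experiment, cells carrying a reporter of CDK2 activity, DHB-tdTomato in the *Rosa26* locus, were sorted by image at 72 h after anti-DEC-OVA into cells with the reporter in the cytoplasm (CDK2hi) and in the nucleus (CDK2low). The list of hashtags named 9 mice for each population, of which 7 had cells in both and were used, 2 had none, and 1 hashtag with signal was not on the list and was left out. Each population was 1 pool, so that pool and population cannot be told apart. The paper describes the time-course cells, whose mutations and gene expression it measured, as DEC-205+ GC B cells. All sorted GC B cells are used here, LZ and DZ alike. The labels give neither the sex nor the age of a mouse. Between 32.2% and 77.7% of the cells of a mouse carried the B1-8hi chain pairing as their only productive heavy and light chains. The others had another pairing, a further productive chain or no complete pairing.

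Between 292 and 1045 cells with 1984426 to 13373185 unique molecular identifiers (UMIs) were kept per mouse in the time course, and between 278 and 1679 cells with 3988733 to 20394909 UMIs per mouse and population in the CDK2 experiment. Pairs of pools shared between 6 and 94 cell barcodes. Each of the 5 pan-B cell and the 6 GC B cell markers had UMIs in every group. Markers of follicular dendritic or stromal cells summed to at most 2.08 CPM (UMIs of a gene scaled to a common library total), with *Col1a1* and *Col3a1* at 0 in most groups, and macrophage or monocyte markers to between 4.46 and 34.9. The dendritic cell list summed to between 43.9 and 90.7 CPM, and the plasma cell list to between 740 and 2385.

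On GRCm39, the build of the deposited data, 8 of the 10 genes lie within the class II region of chromosome 17, from *H2-Oa* (chr17:34311314-34314328, plus strand) over *H2-Ob* (chr17:34457836-34473388, plus strand) and *H2-Aa* (chr17:34493404-34506798, minus strand) to *H2-Eb1* (chr17:34504236-34535648, plus strand). *Ciita* lies on chromosome 16 (chr16:10297923-10347694, plus strand). Class II promoters carry an X box, bound by the RFX complex, and a Y box, bound by NF-Y. The letters GATTGG, the core of the Y box, were found on either strand in the 250 bases before the start of the GENCODE M39 canonical transcript in 6 of the 10 genes, and in 16.3% of 21770 promoters of protein-coding genes. The 3 promoters below are shown because the match lay in a stretch with no annotated exon. Each runs 5′ to 3′ along its gene over 100 bases and ends 10 bases before the start, with GATTGG in capitals. *H2-Aa* is shown from chr17:34506808-34506907 (minus strand), *H2-Ab1* from chr17:34482073-34482172 (plus strand) and *H2-DMb2* from chr17:34364064-34364163 (plus strand).
H2-Aa: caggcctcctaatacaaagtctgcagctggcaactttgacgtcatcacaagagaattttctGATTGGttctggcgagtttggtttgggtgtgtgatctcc
H2-Ab1: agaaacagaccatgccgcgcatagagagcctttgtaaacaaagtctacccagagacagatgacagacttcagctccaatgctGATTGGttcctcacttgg
H2-DMb2: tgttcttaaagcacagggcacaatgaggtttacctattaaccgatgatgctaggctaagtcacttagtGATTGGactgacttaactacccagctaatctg

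At 48 h after anti-DEC-OVA, the question was how GC B cells driven into rapid division differ from those of untreated mice of the same day. All 10 genes were lower in CPM in treated mice, by between 0.39 and 0.86 on the log2 scale, with a median log2 fold change of -0.45. Over all 10220 genes tested, 47.4% were called in either direction, 26.3% higher and 21.1% lower, with a median log2 fold change of 0.01. Each experiment fitted alone called all 10 genes lower as well, with medians of -0.48 in the larger and -0.50 in the smaller one, where 19.7% and 10.1% of all genes were called lower. A gene was called at an adjusted p under 0.05 in edgeR's quasi-likelihood test, with Benjamini-Hochberg adjustment over all genes tested.

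*Cd74* had 15752, 15636, 16095 and 14613 CPM, scaled by the trimmed mean of M values (TMM), in the 4 untreated mice of the larger experiment at 48 h. The 6 treated mice lay between 10664 and 11094, with a median of 10864. In the smaller experiment the 2 untreated mice had 8930 and 9590 and the 3 treated mice 6830, 6501 and 6966. Every treated mouse was below every untreated mouse of its experiment, and the fitted log2 fold change was -0.49 ± 0.04 (SE, adjusted p = 1.9e-11). The level of *Cd74* itself differed between the experiments by more than the treatment moved it, so that groups were compared within experiments by a term in the fit.

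The classical chains fell as well. *H2-Ab1* was at 2653, 2727, 2687 and 2576 CPM in untreated mice of the larger experiment and between 2001 and 2106 in treated mice, with a median of 2088. In the smaller experiment it was at 1825 and 2101 in untreated and 1487, 1391 and 1483 in treated mice. *H2-Ab1*, *H2-Aa* and *H2-Eb1* fell by 0.39, 0.40 and 0.45 on the log2 scale, with standard errors of 0.04, 0.05 and 0.05 and adjusted p of 1.58e-10, 4.59e-08 and 4.21e-09, and none of the 3 overlapped between the groups in either experiment.

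The genes of peptide editing were led by *H2-Oa*. In the larger experiment it had 234, 226, 235 and 174 CPM in untreated mice and between 112 and 136 in treated mice, with a median of 123. In the smaller experiment it had 119 and 140 in untreated and 68.4, 60.5 and 70.0 in treated mice. Its log2 fold change was -0.86 ± 0.09 (SE, adjusted p = 9.53e-10), the largest fall of the 10 genes. *H2-Ob*, the other DO chain, fell by 0.57 ± 0.06 (adjusted p = 4.21e-09), and the DM genes *H2-DMa*, *H2-DMb1* and *H2-DMb2* fell by 0.44, 0.43 and 0.39, with standard errors of 0.05, 0.07 and 0.05 and a highest adjusted p of 1.44e-06. *H2-DMb1* and *H2-DMb2* are near-identical copies, so that reads that fit both may be lost or split and their separate values are uncertain. *H2-DMb1* was the 1 gene of the 10 that overlapped between treated and untreated mice in the larger experiment, where 1 untreated mouse at 47.9 CPM lay within the treated range of 42.4 to 49.1. Of 10216 genes with 1 symbol each, 11.8% were lower in treated mice without overlap in the larger and 23.8% in the smaller experiment.

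*Ciita* was at 270, 281, 313 and 296 CPM in untreated mice of the larger experiment and between 187 and 210 in treated mice, with a median of 198. The smaller experiment gave 272 and 312 in untreated and 176, 212 and 185 in treated mice. The fitted difference was -0.58 ± 0.05 (SE, adjusted p = 2.05e-11), and unlike the chain genes *Ciita* stood at about the same level in both experiments.

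**Figure D1:**
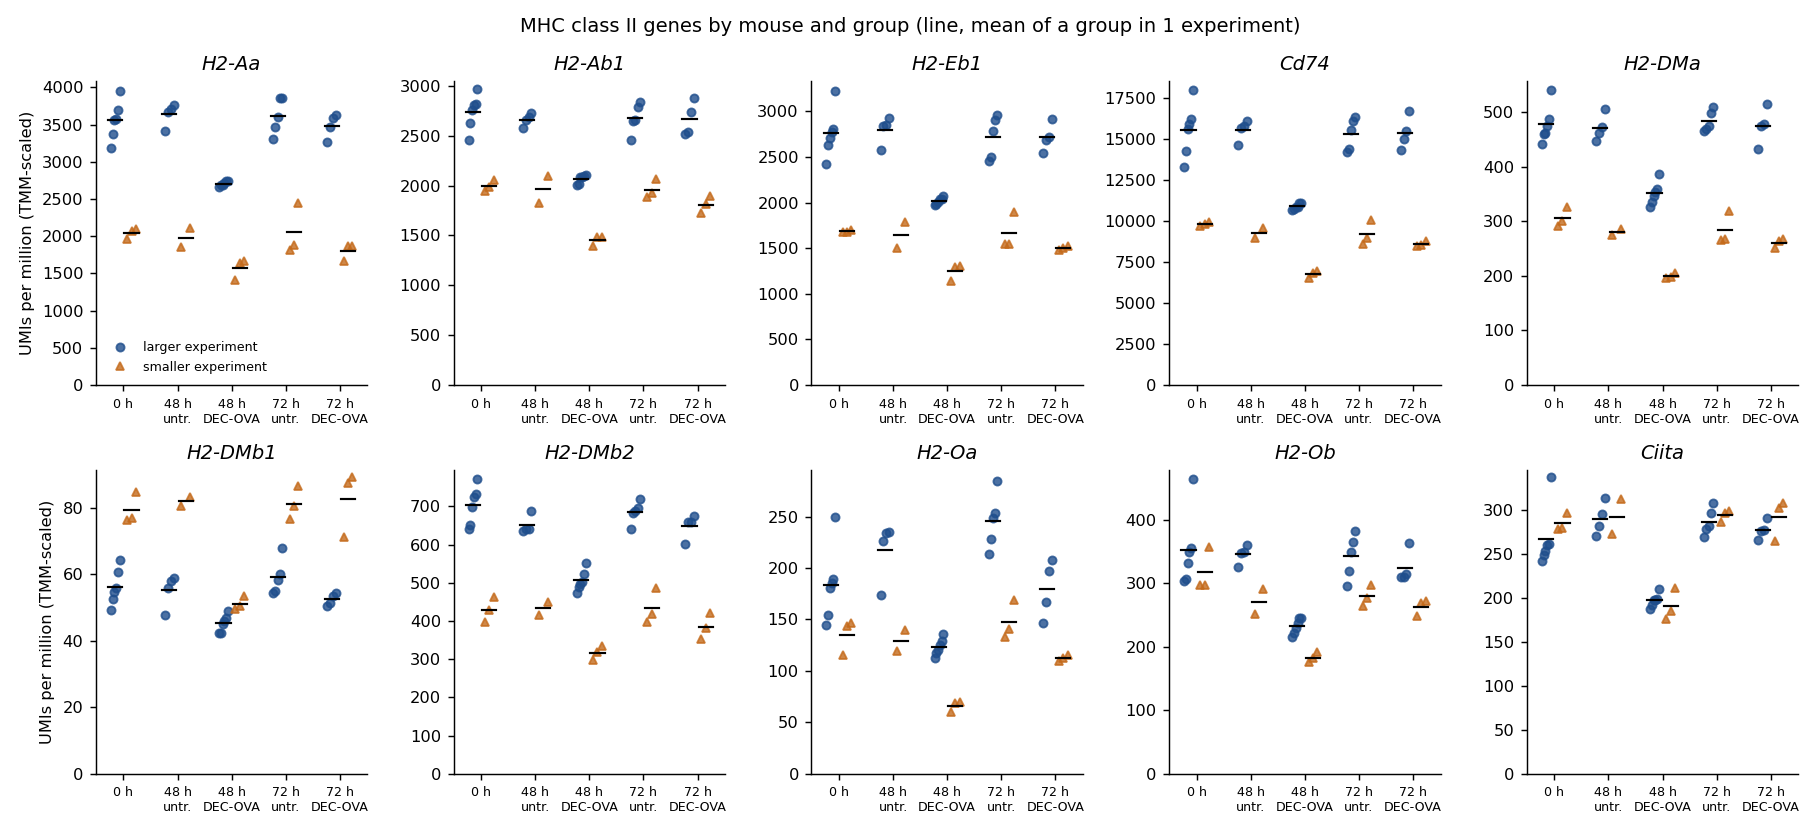
CPM (TMM-scaled, linear axis from 0) of the 10 genes, with 1 point per mouse, circles for the larger and triangles for the smaller experiment, and a line at the mean of each group and experiment. The mean of the 48 h anti-DEC-OVA mice sits lowest for all 10 genes in each experiment, the single mice of the larger experiment lying at 10664 to 11094 for *Cd74*, and the treated and untreated mice of 72 h overlap for most genes.

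The same UMIs counted per cell gave the opposite direction for 9 of the 10 genes. Treated cells at 48 h held more RNA: the median UMIs per cell of a mouse was 12807 to 14467 in treated and 6640 to 7455 in untreated mice of the larger experiment, and 10004 to 12545 and 5030 to 5355 in the smaller one. *Cd74* UMIs per cell were 155 to 173 in treated and 130 to 143 in untreated mice of the larger experiment. Means per cell were higher in treated mice for 9 of the 10 genes in both experiments, with ratios of treated to untreated means between 0.975 and 1.40 in the larger and between 0.874 and 1.36 in the smaller experiment. *H2-Oa* was the gene with a ratio under 1, at 0.975 and 0.874. Groups did not overlap, with treated mice higher, for 8 of 10 genes in the larger and 9 of 10 in the smaller experiment, as they did for 80.8% and 89.7% of all genes. The median ratio over all genes was 1.72 in the larger and 1.73 in the smaller experiment. The genes thus took a smaller share of a larger pool of RNA, and the fold changes of CPM are differences in that share.

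**Figure D2:**
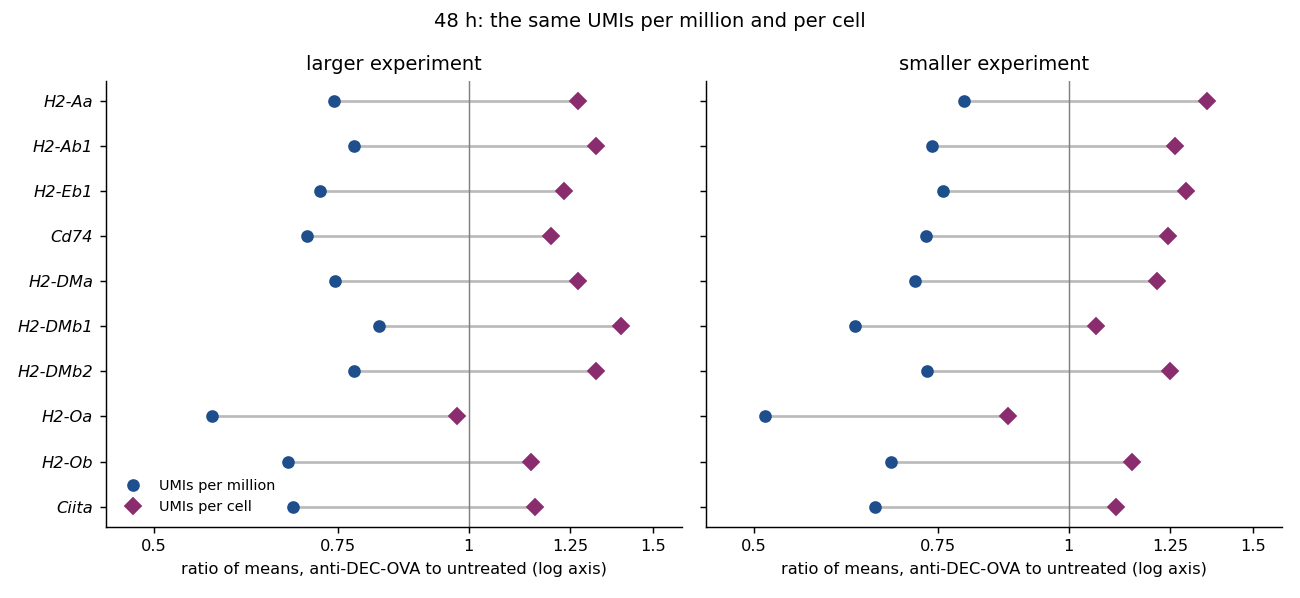
Ratio of the mean in anti-DEC-OVA to that in untreated mice at 48 h (log axis), as CPM (circles) and as UMIs per cell (diamonds), for each gene and experiment. All circles lie under 1, and the diamonds lie between 0.975 and 1.40 in the larger experiment, with *H2-Oa* alone under 1 in each experiment.

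Other features of the cells moved with the treatment at 48 h. G0-G1 cells, as called from S and G2/M transcripts, were 17.8% to 24.2% of treated and 52.3% to 56.9% of untreated cells in the larger experiment, and 15.3% to 18.6% and 44.0% to 44.1% in the smaller one. The naive or memory B cell markers summed to 141 to 202 CPM in treated and 321 to 411 in untreated mice of the larger experiment, and to 94.5 to 114 and 219 to 255 in the smaller one. T cell markers summed to 0.398 to 4.80 in treated and 5.98 to 9.09 in untreated mice over both experiments. Dendritic cell markers went the other way, summing to 69.7 to 77.3 in treated and 54.9 to 65.4 in untreated mice of the larger experiment. In the smaller one this list summed to 64.4 to 69.4 and 48.5 to 50.7. There *Clec9a*, *Itgax*, *Siglech* and *Xcr1* had 0 UMIs in untreated mice, so that their sum came from the other genes of the list. All genes of the list had UMIs in treated mice. Plasma cell markers summed to 1345 to 1897 in treated and 1041 to 1526 in untreated mice of the larger experiment. They summed to 1210 to 2037 and 740 to 1428 in the smaller one, with overlap in both. The pan-B cell markers were lower in 5 of 5 genes, with a median log2 fold change of -0.33, beside 21.1% of all genes lower. Cells with the B1-8hi pairing were 70.5% to 77.7% of treated and 62.3% to 67.2% of untreated cells in the larger experiment. They were 53.1% to 58.0% of treated and 34.7% to 38.8% of untreated cells in the smaller one. In cells with this pairing alone, all 10 genes were called lower, with a median of -0.52, beside 16.4% of all genes called lower. In sums per mouse, another mix of cells and a lower share of these genes within cells cannot be told apart. The part of the marker lists in the result was not tested.

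Within a mouse, the class II genes differed between phases. In each of the 23 mice at 0 h or without treatment, all 10 genes were lower in CPM in G2/M cells and in S cells than in G0-G1 cells. The median difference of G2/M from G0-G1 cells was -0.76 for *Cd74*, -0.48 for *H2-Ab1*, -0.86 for *H2-Oa* and -0.96 for *Ciita* on the log2 scale, where the median over 10217 genes was -0.13. The 9 treated mice of 48 h showed the same order in all 10 genes and the 7 treated mice of 72 h in all but *H2-DMb1*, which was lower in G2/M cells in 6 of 7. These are descriptions by mouse, with library sizes taken as the total UMIs of the cells of a phase.

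The difference at 48 h was also seen within each phase. All 10 genes were called lower in S cells alone and in G2/M cells alone, and 9 of 10 in G0-G1 cells, where *H2-DMa* had a log2 fold change of -0.15 ± 0.05 (SE, adjusted p = 0.0756). Over all genes 6.26% were called lower in S cells, 7.99% in G2/M cells and 4.09% in G0-G1 cells. The sizes were smaller than over all cells, with a median of -0.24 in G0-G1 cells, -0.36 in S cells and -0.35 in G2/M cells. *Cd74* fell by 0.24 in G0-G1 cells, 0.36 in S cells and 0.35 in G2/M cells, with adjusted p of 0.000133, 1.09e-06 and 2.37e-07. A test of the difference between phases, with sums per mouse and phase in 1 fit, called 0 of 10 genes between S and G0-G1 cells in edgeR, with 7 of the 10 at an unadjusted p under 0.05, and 1 of 10 between G2/M and G0-G1 cells. Over all genes 1.61% were called in the test of S cells (0.187% higher, 1.42% lower) and 2.77% in that of G2/M cells (0.426% higher, 2.35% lower). The called gene was *H2-Oa*, whose fall was larger in G2/M cells by 0.31 ± 0.09 (SE, adjusted p = 0.0267).

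At 72 h, *H2-Oa* was the 1 gene of the 10 called, beside 8.55% of all genes in either direction, 4.67% higher and 3.88% lower. It had 213, 248, 254, 228 and 284 CPM in untreated mice of the larger experiment and 197, 167, 147 and 208 in treated mice. In the smaller experiment it had 132, 141 and 169 in untreated and 110, 113 and 115 in treated mice. Treated mice were below all untreated mice of their experiment in both, but the share of all genes separated in this way is not given here. The fitted difference was -0.43 ± 0.09 (SE, adjusted p = 0.00176). Fitted alone, the larger experiment gave -0.45 (adjusted p = 0.0149) and the smaller one -0.41 (adjusted p = 0.132) for *H2-Oa*. With cells thinned to equal UMIs, *H2-Aa* (-0.20) and *H2-DMb2* (-0.17) were called as well, beside 2.52% of all genes called lower.

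The other 9 genes had log2 fold changes between -0.12 and -0.03 at 72 h, with adjusted p between 0.117 and 0.782. *Cd74* had 14227, 16355, 15558, 14373 and 16092 CPM in untreated and 15479, 14971, 14315 and 16674 in treated mice of the larger experiment, which overlapped, and a fitted difference of -0.04 ± 0.04 (SE). *Ciita* had 269, 282, 296, 278 and 308 in untreated and 277, 276, 266 and 291 in treated mice, with a fitted difference of -0.03 ± 0.05 (SE). *H2-Eb1* did not overlap in the smaller experiment, at 1549, 1542 and 1896 CPM in untreated and 1528, 1504 and 1481 in treated mice. The edgeR fit of that experiment alone gave it -0.15 (adjusted p = 0.629). The share of all genes without overlap in CPM at 72 h is not given here. Fitted alone, the larger experiment had a median of -0.05 over the 10 genes and the smaller one -0.13. UMIs per cell overlapped for 9 of 10 genes in each experiment, where 5.37% of all genes did not overlap in the larger and 14.8% in the smaller one.

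**Figure D3:**
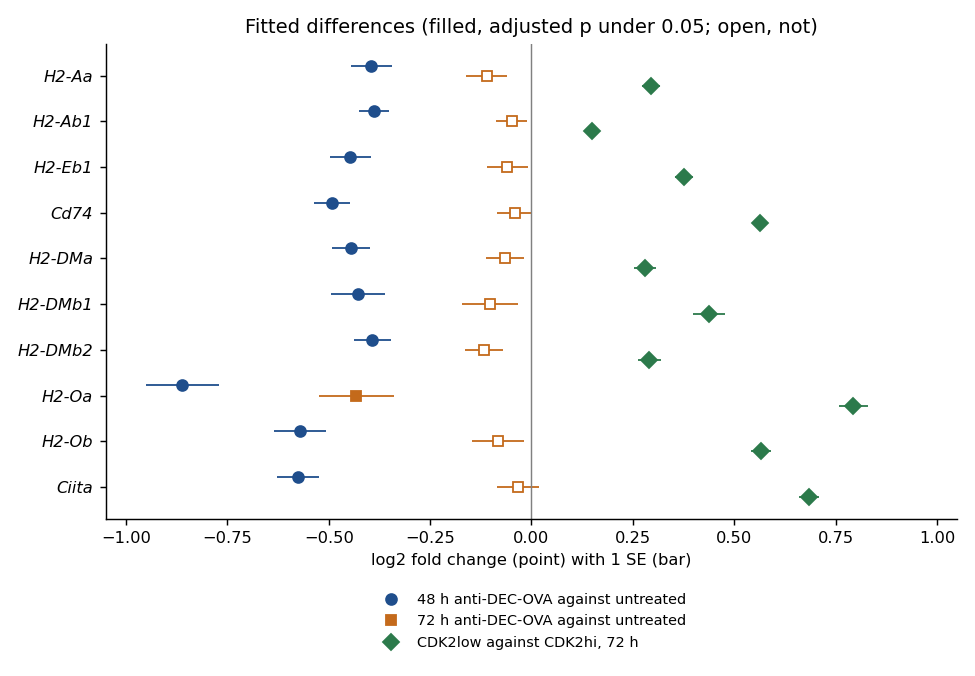
Fitted log2 fold change (points) with 1 standard error (bars) of the 10 genes for anti-DEC-OVA against untreated mice at 48 h and 72 h and for CDK2low against CDK2hi cells. Filled points have an adjusted p under 0.05: all 10 lie below 0 at 48 h, *H2-Oa* alone is filled at 72 h (-0.43), and all 10 lie above 0 in CDK2low cells.

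The phases of the 72 h cells did not show the same picture. In G0-G1 cells alone, 8 of 10 genes were called lower in treated mice, with a median of -0.20 over the 10 genes, beside 4.95% of all genes called lower. *H2-Oa* fell by 0.66 ± 0.08 (SE, adjusted p = 3.99e-08), *H2-Aa* by 0.27 ± 0.06 (adjusted p = 0.00338) and *Cd74* by 0.19 ± 0.04 (adjusted p = 0.00192) in these cells. *H2-DMa* and *Ciita* had -0.15 and -0.16, with adjusted p of 0.0745 and 0.0754. In S cells 0 of 10 genes were called by edgeR (1 at an unadjusted p under 0.05), with *H2-Oa* at -0.31 and an adjusted p of 0.118, and in G2/M cells 1 of 10, *H2-Oa* with -0.31 ± 0.09 (SE, adjusted p = 0.0442). Over all genes 4.41% were called in S cells, and 1.55% were called lower in G2/M cells.

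The difference between phases was tested. Treatment moved 5 of 10 genes less far down, or up, in S than in G0-G1 cells at 72 h, beside 1.91% of all genes called in this test, 1.04% higher and 0.872% lower: *H2-Oa* by 0.35, *H2-Aa* by 0.29, *H2-Ab1* by 0.25, *Cd74* by 0.22 and *H2-Eb1* by 0.21, with adjusted p between 0.00366 and 0.027. Between G2/M and G0-G1 cells 2 genes were called, *H2-Oa* with 0.35 ± 0.09 (SE, adjusted p = 0.0196) and *Cd74* with 0.19 ± 0.05 (SE, adjusted p = 0.0374), beside 1.81% of all genes, 0.748% higher and 1.06% lower. G0-G1 cells were 49.2% to 56.6% of treated and 39.1% to 56.1% of untreated cells in the larger experiment at 72 h, and 33.6% to 46.3% and 40.2% to 47.2% in the smaller one. Among the naive or memory B cell markers, *Cd38* (-0.49) and *Ccr6* (-1.10) were called lower in treated mice, beside 3.88% of all genes, and *Klf2* (-0.71) and *Fcer2a* (-0.22) had adjusted p of 0.0622 and 0.17. A list of 12 LZ genes summed to 803 to 946 CPM in treated and 971 to 1039 in untreated mice of the larger experiment. Dendritic cell markers summed to 66.8 to 72.7 and 48.3 to 60.3 there, and GC B cell markers to 1640 to 1696 and 1522 to 1623. Each of these lists overlapped in the smaller experiment, and their part in the result was not tested.

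**Figure D4:**
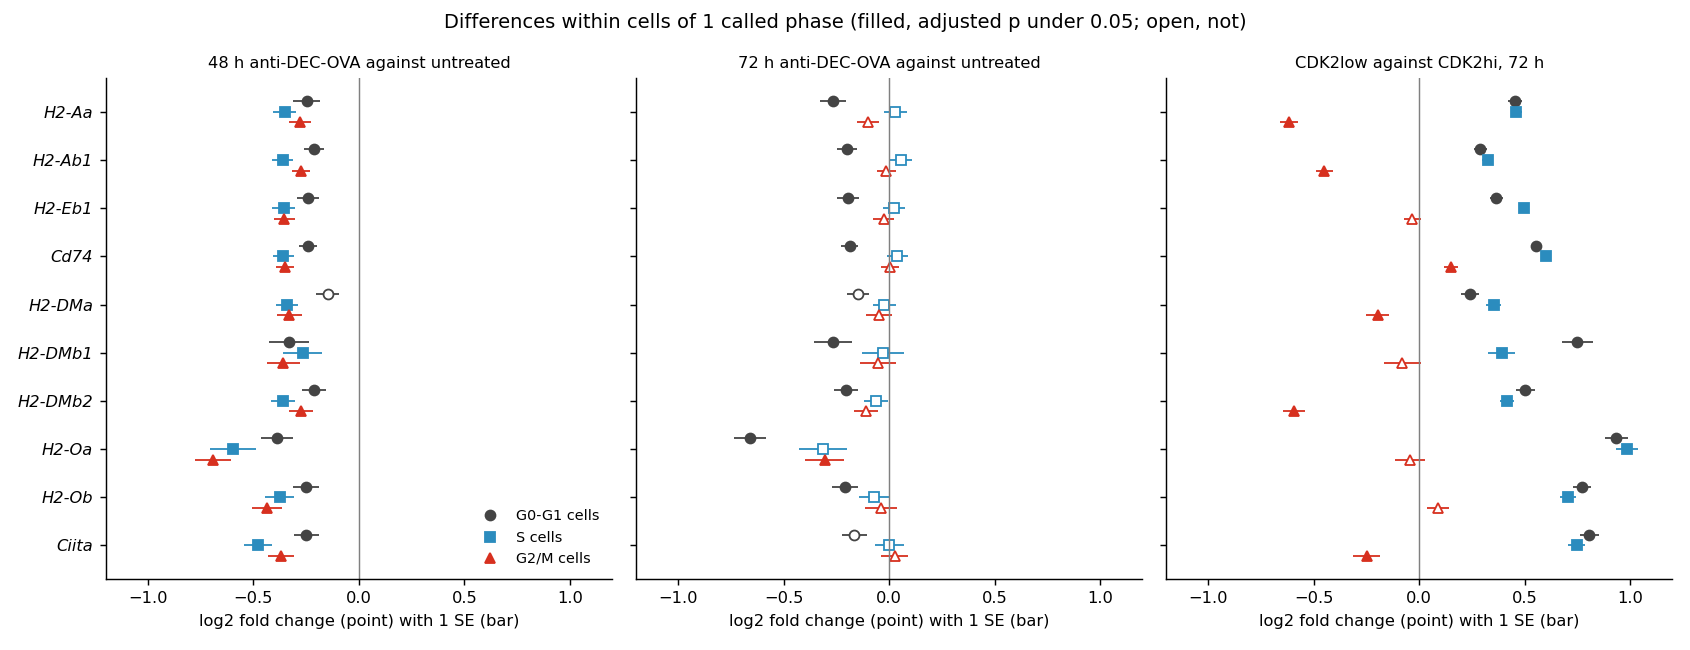
Fitted log2 fold change (points) with 1 standard error (bars) of the 10 genes within G0-G1, S or G2/M cells, for 48 h, 72 h and the CDK2 populations. At 48 h the 3 phases lie on the same side of 0, at 72 h the G0-G1 points lie lowest, and in the CDK2 populations the G2/M points lie apart from the others, for example *H2-Aa* at -0.62 against 0.45 in G0-G1 cells.

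Between 48 h and 72 h, treated mice gained class II transcripts as CPM. All 10 genes were called higher at 72 h than at 48 h, by 0.30 (*H2-Aa*) to 0.61 (*H2-Oa*) on the log2 scale and with a median of 0.40, beside 49.1% of all genes called, 22.3% higher and 26.8% lower. *Cd74* rose by 0.44 ± 0.04 (SE, adjusted p = 1.74e-10) and *Ciita* by 0.53 ± 0.05 (SE, adjusted p = 1.22e-10). The experiments fitted alone called 10 genes higher in the larger and 9 in the smaller one, beside 21.3% and 12.3% of all genes. UMIs per cell had a lower mean at 72 h for all 10 genes in the larger experiment and for 9 in the smaller one, where *H2-Oa* had a ratio of 72 h to 48 h means of 1.02. The 72 h mice were lower without overlap in 8 of 10 genes in the larger and 7 of 10 in the smaller experiment, and in 77.1% and 83.5% of all genes. In G0-G1 cells alone 0 of 10 genes were called by edgeR (0 at an unadjusted p under 0.05), and the log2 fold changes lay between -0.11 and 0.09, beside 5.29% of all genes called. In S cells and in G2/M cells all 10 were called higher, with medians of 0.43 and 0.32, beside 13.3% and 14% of all genes called higher.

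The change of the treatment effect from 48 h to 72 h, the interaction of treatment and time, was called for all 10 genes and had a median of 0.38, beside 31.5% of all genes called, 13% higher and 18.5% lower. It was called, and above 0, for 8 genes in the larger and 7 in the smaller experiment alone, beside 11.3% and 3.27% of all genes. It was largest for *Ciita* (0.54 ± 0.07, SE, adjusted p = 1.82e-06) and smallest for *H2-DMb2* (0.28 ± 0.07, SE, adjusted p = 0.0013). Cells with the B1-8hi pairing alone and thinned cells gave 9 of 10 genes each, all above 0, beside 1984 of 9836 and 1655 of 9043 genes called. With the pairing, the change was as small as 0.11, with a highest adjusted p of 0.491 in edgeR. In G0-G1 cells it was called for 0 of 10 genes by edgeR, in S cells for 8 and in G2/M cells for 7, each above 0. Over all genes 3.02% were called in G0-G1 cells, and 3.39% and 4.4% were called above 0 in S and G2/M cells. Within G0-G1 cells *H2-Oa* had -0.27 ± 0.11 (SE, adjusted p = 0.187), an unadjusted p under 0.05, and was the 1 such gene of the 10.

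Without treatment the genes were at about the same level at 72 h and at 0 h. *H2-Oa* was the 1 gene called, 0.33 ± 0.09 higher at 72 h (SE, adjusted p = 0.0145), beside 4.41% of all genes called, 1.79% higher and 2.62% lower. It lay between 144 and 249 CPM in the 6 mice at 0 h in the larger experiment, with a median of 183, and the 5 untreated mice at 72 h, between 213 and 284, overlapped them. The larger experiment alone gave 0.46 for *H2-Oa* (adjusted p = 0.0105) and the smaller one 0.12 (adjusted p = 0.723). A mouse of 0 h in the larger experiment had 68.3% G0-G1 cells, above the other mice of the time course, and the highest CPM of its group in all 10 genes, for example 17948 for *Cd74*, where the others had 13284 to 16217. Without it, *H2-Oa* was higher by 0.39 and *Ciita* by 0.14 (adjusted p = 0.0487), so that 2 genes were called, beside 2.33% of all genes called higher, while a fit of these 2 groups alone called 0 of 10 genes in edgeR, with *H2-Oa* at an adjusted p of 0.0586 and 1 gene at an unadjusted p under 0.05, beside 2.63% of all genes called.

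The CDK2 populations compare cells of the same mouse at 72 h after anti-DEC-OVA by the activity of the kinase that drives entry into S phase. All 10 genes were higher in CPM in CDK2low than in CDK2hi cells, in 7 of 7 mice each, with a median log2 fold change of 0.41. Of 10120 genes tested, 75.1% were called, 38.6% higher and 36.5% lower. The median over all genes was 0.02, and 0.22 when total UMIs were the library size, where the median of the 10 genes was 0.60.

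*H2-Oa* lay between 87.2 and 117 CPM in CDK2hi cells, with a median of 96.8, and between 159 and 192 in CDK2low cells, with a median of 172. *Ciita* lay between 199 and 269 (median 236) and between 328 and 428 (median 368). *Cd74* lay between 9608 and 12609 (median 10485) and between 14302 and 16868 (median 15788). None of the 3 overlapped between populations, and they rose by 0.79 ± 0.04, 0.68 ± 0.02 and 0.56 ± 0.02 in CDK2low cells (SE, adjusted p = 3.02e-16, 2.09e-18 and 2.07e-19). *H2-Ob*, with 0.57 ± 0.02, was the other gene of the 4 without overlap, beside 17.4% of all genes that were higher without overlap.

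The classical chains were higher in CDK2low cells as well, *H2-Ab1* by the smallest fold of the 10 genes. *H2-Ab1* lay between 1916 and 2438 in CDK2hi cells (median 2084) and between 2189 and 2516 in CDK2low cells (median 2328), with a log2 fold change of 0.15 ± 0.02 (SE, adjusted p = 1.43e-07), and the difference within a mouse ran from 0.02 to 0.19. *H2-Aa* and *H2-Eb1* rose by 0.29 and 0.38, and *H2-DMa*, *H2-DMb1* and *H2-DMb2* by 0.28, 0.44 and 0.29. UMIs per cell were higher in CDK2low cells for all 10 genes without overlap, with ratios of means between 1.55 and 2.44, beside 48.3% of all genes higher without overlap and a median ratio of 1.42 over all genes. The median UMIs per cell was 8939 to 11754 in CDK2hi and 10563 to 14838 in CDK2low cells. Each population was 1 pool, so that a difference in UMIs per cell cannot be told apart from one in depth between the pools.

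**Figure D5:**
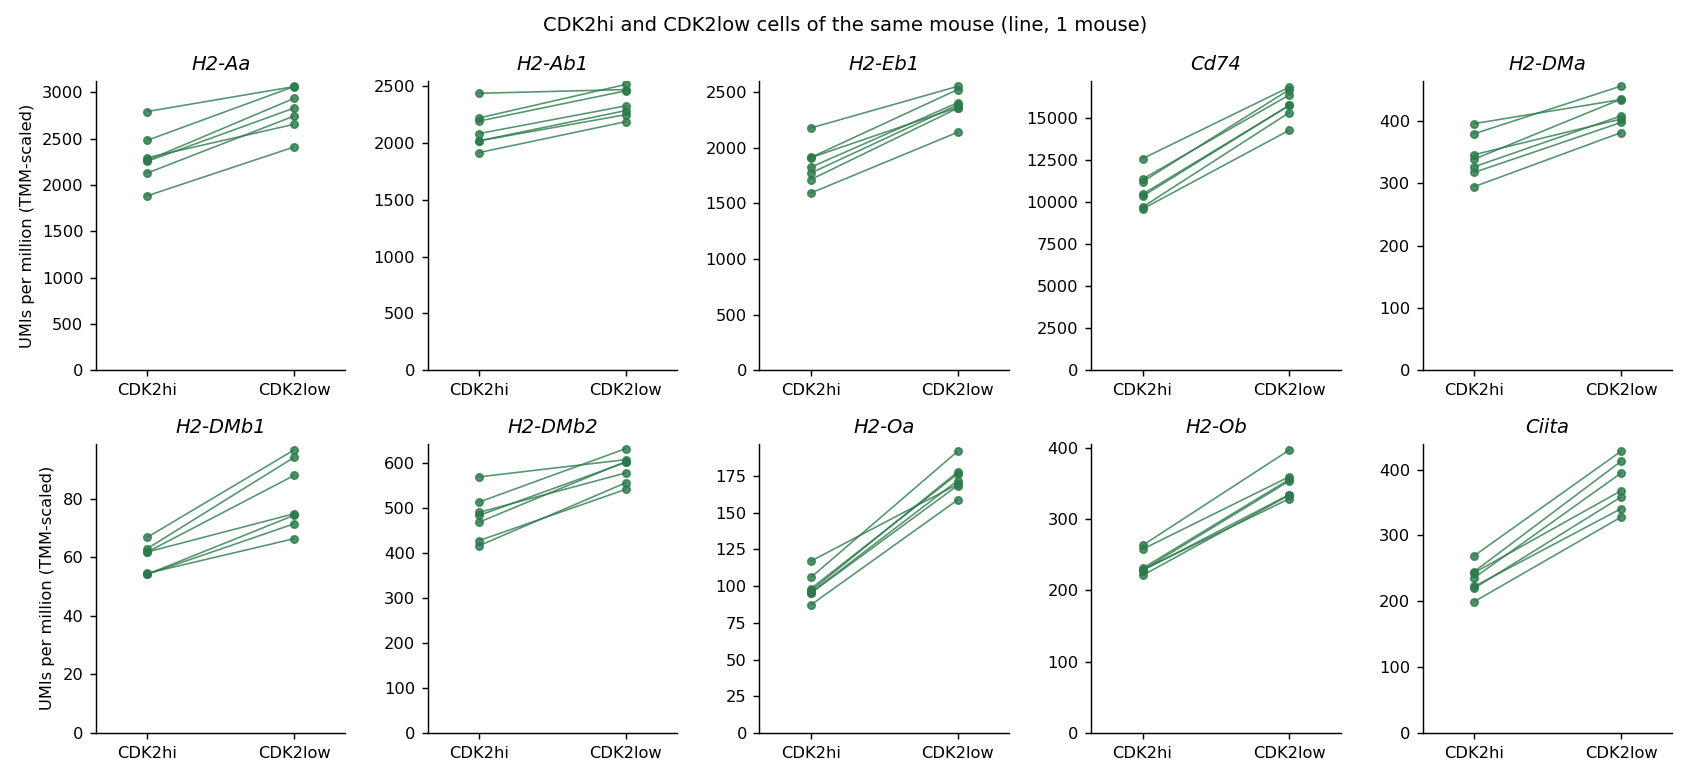
CPM (TMM-scaled, linear axis from 0) of the 10 genes in CDK2hi and CDK2low cells, with a line for each of the 7 mice. Every line rises, steeply for *H2-Oa* (median 96.8 to 172) and barely for 1 mouse in *H2-Ab1* (log2 difference 0.02).

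The populations, sorted by the place of the reporter, differed in phase: G0-G1 cells were 12.2% to 19.1% of CDK2hi and 52.7% to 63.0% of CDK2low cells, and G2/M cells 45.5% to 57.7% and 6.79% to 12.5%. In G0-G1 cells alone and in S cells alone, all 10 genes were higher in CDK2low cells, and *Cd74* had 0.55 and 0.60 on the log2 scale, beside 31.0% and 32.0% of all genes called higher. In G2/M cells, which numbered 222 to 764 per mouse in CDK2hi and 25 to 119 in CDK2low cells, 5 genes were called lower and 1 higher, beside 25.7% of all genes called lower and 24.8% higher. *H2-Aa* fell by 0.62, *H2-DMb2* by 0.59, *H2-Ab1* by 0.45, *Ciita* by 0.25 and *H2-DMa* by 0.20, and *Cd74* rose by 0.15, with adjusted p between 6.57e-14 and 0.00323. The test of the difference between G2/M and G0-G1 cells called all 10 genes, between -1.08 and -0.39, beside 53.6% of all genes called, 31.3% higher and 22.3% lower. Between S and G0-G1 cells it called *H2-Eb1* (0.14) and *H2-DMb1* (-0.35), beside 20.9% of all genes called, 14.2% higher and 6.7% lower.

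Levels within a mouse were compared between phases. G2/M cells of the CDK2low population were lower than its G0-G1 cells in 7 of 7 mice for each gene, by a median of 0.52 for *H2-Eb1* to 1.16 for *Ciita* on the log2 scale. In CDK2hi cells the same difference had medians between -0.26 and 0.11, and the genes were not alike. *H2-Eb1*, *Cd74* and *H2-DMa* were lower in G2/M cells in 7 of 7 mice and *H2-Oa* and *Ciita* in 5 of 7, while *H2-Aa* and *H2-DMb2* were lower in 3, *H2-Ab1* and *H2-DMb1* in 2 and *H2-Ob* in 1. These are descriptions by mouse on the total UMIs of a phase, and the share of all genes is not given for these populations. The counts are therefore not a result about these genes. G2/M cells of the CDK2low population numbered 25 to 119 per mouse. Naive or memory B cell markers summed to 102 to 185 CPM in CDK2hi and 301 to 451 in CDK2low cells, macrophage or monocyte markers to 4.46 to 7.18 and 7.44 to 23.0, and T cell markers to at most 1.70 and 47.6. Plasma cell markers summed to 936 to 1173 in CDK2hi and 789 to 1037 in CDK2low cells, which overlapped. All 5 pan-B cell markers were higher in CDK2low cells, with a median of 0.37, beside 38.6% of all genes higher. The part of these cells in the result was not tested.

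The ratio of *H2-Oa* to *H2-DMa* differed between the groups as well. The log2 ratio of *H2-Oa* to *H2-DMa* CPM was -1.36 to -0.98 in untreated and -1.62 to -1.38 in treated mice of the larger experiment at 48 h, and -1.2 and -1.03 against -1.70 to -1.53 in the smaller one. At 72 h it was -1.15 to -0.84 in untreated and -1.56 to -1.28 in treated mice of the larger experiment, and -1.01 to -0.92 and -1.29 to -1.16 in the smaller one. In CDK2hi cells it was -2.0 to -1.71 and in CDK2low cells -1.44 to -1.07. The ranges do not overlap, but the ratio was not tested, and *H2-Oa* is the gene with the largest fall at 48 h of the 10. The other DO chain did not show the same at 72 h, where the log2 ratio of *H2-Ob* to *H2-DMa* was -0.68 to -0.41 in untreated and -0.61 to -0.48 in treated mice of the larger experiment and overlapped in the smaller one too. At 48 h it was -0.53 to -0.39 and -0.69 to -0.54 in the larger experiment, without overlap, and in the smaller one -0.13 and 0.02 against -0.18 to -0.03, which overlapped. Between CDK2hi (-0.74 to -0.37) and CDK2low cells (-0.45 to -0.02) the ratio of *H2-Ob* to *H2-DMa* overlapped as well. The log2 ratio of *H2-Oa* to *H2-Ob* overlapped between the groups of the larger experiment at 48 h, at -0.91 to -0.57 in untreated and -1.07 to -0.83 in treated mice. It did not overlap in the smaller experiment at 48 h (-1.07 and -1.06 against -1.66 to -1.36), at 72 h in the larger (-0.55 to -0.43 against -1.08 to -0.68) and the smaller one (-1.0 to -0.82 against -1.26 to -1.18), or between CDK2hi (-1.39 to -1.14) and CDK2low cells (-1.08 to -0.96). A ratio without DO genes differed as well: that of *Cd74* to *H2-Ab1* was 2.27 to 2.38 in CDK2hi and 2.70 to 2.79 in CDK2low cells, and 2.50 to 2.58 in untreated and 2.37 to 2.42 in treated mice of the larger experiment at 48 h, while in the smaller one 2.19 and 2.29 overlapped 2.20 to 2.23. That of *H2-Aa* to *H2-Ab1* overlapped in each of these comparisons. For *H2-Oa* to *H2-DMa*, the 0 h mice of the larger experiment ranged from -1.68 to -1.12 and overlapped both groups of 48 h.

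Other genes of the pathway came from lists, whose counts are to be read against the shares of all genes: 26.3% were called higher and 21.1% lower at 48 h, with a median of 0.01, and 38.6% higher and 36.5% lower in CDK2low cells, with a median of 0.02. Of 7 factors that bind class II promoters, 3 were lower and 0 higher at 48 h, with a median of -0.01 over the 7: the RFX subunits *Rfx5* (-0.34, adjusted p = 0.000917) and *Rfxank* (-0.29, adjusted p = 0.0236) and the X box factor *Creb1* (-0.20, adjusted p = 0.000966). In CDK2low cells 2 were higher and 4 lower, with a median of -0.20, in a comparison where 75.1% of all genes were called: *Rfx5* and *Rfxank* rose by 0.40 and 0.46, and *Nfya* and *Nfyb*, NF-Y subunits with many other targets, fell by 0.73 and 0.70. At 72 h 0 of the 7 were called by edgeR, beside 8.55% of all genes, with *Nfya* at -0.22 (adjusted p = 0.153).

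Of 4 genes of class II turnover, 2 were lower at 48 h: *Marchf1*, a ubiquitin ligase for class II (-0.47, adjusted p = 5.61e-06), and *Cd83*, which counters it (-1.13, adjusted p = 7.14e-16), with *Sppl2a* at -0.10 (adjusted p = 0.0744). The median of the 4 was -0.28, and 21.1% of all genes were lower. In CDK2low cells 3 of the 4 were higher, *Cd83* by 1.18, *Marchf1* by 0.68 and *Sppl2a*, the protease that clears the CD74 stub, by 0.43, with a median of 0.55 and beside 38.6% of all genes higher. Of 8 genes of endolysosomal antigen processing, 4 were lower and 1 higher at 48 h, with a median of -0.175, beside 21.1% and 26.3% of all genes. *Ifi30*, the thiol reductase GILT, fell by 0.67, *Ctsh* by 0.33 and *Ctss*, the cathepsin that cuts CD74, by 0.30, while *Lgmn* rose by 0.17. In CDK2low cells 6 of 8 were higher, with a median of 0.36 and beside 38.6% of all genes, among them *Ifi30* (0.43), *Ctss* (0.40) and *Ctsh* (0.33).

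Of 7 genes of costimulation and T cell adhesion, 4 were lower at 48 h, among them *Cd86* (-0.82), *Cd40* (-0.62) and *Icosl* (-0.88), with a median of -0.38 over the 7 and beside 21.1% of all genes lower. In CDK2low cells 4 were higher and 1 lower, with a median of 0.34 and beside 38.6% and 36.5% of all genes, and *Cd86* was at 1.10, *Icosl* at 1.19 and *Cd40* at 0.41. At 72 h 1 of 7 was called, *Slamf6* with -0.24 (adjusted p = 0.0027), beside 8.55% of all genes. *H2-Eb2*, a further class II chain gene, fell by 0.37 at 48 h (adjusted p = 4.52e-05) and rose by 0.54 in CDK2low cells, and *H2-Ea* did not pass the filter. Of 12 LZ genes, 10 were lower at 48 h, beside 21.1% of all genes, and 11 higher in CDK2low cells, beside 38.6%, with medians of -0.605 and 0.44. Of 8 DZ genes 5 were higher and 2 lower at 48 h, beside 26.3% and 21.1% of all genes, and 2 were higher and 5 lower in CDK2low cells, beside 38.6% and 36.5%, with medians of 0.49 and -1.34. *Cd83*, *Cd86* and *Icam1* stand in 2 of these lists each.

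Across the 39 mice of the time course, the genes varied together, *H2-DMb1* less than the others. Over the 45 pairs of genes, Pearson's r of log2 values centred within experiment lay between 0.66 and 0.98, with a median of 0.90. Centred within experiment and group, which removes the treatment, it lay between 0.02 and 0.92, with a median of 0.66. The pairs with *H2-DMb1*, the gene with the fewest UMIs, then lay between 0.02 and 0.48 and the other pairs between 0.28 and 0.92, and *H2-DMb1* had r = 0.16 with the mean of the 3 chain genes and *Cd74*, where *Ciita* had 0.46 and *H2-Oa* 0.84. Among 6768 other genes with an average log2 CPM above 4, those most like the mean of *H2-Aa*, *H2-Ab1*, *H2-Eb1* and *Cd74* were *Cd52* (r = 0.96), *Hvcn1* (0.94), *Napsa* (0.94), *Cd37* (0.94) and *Cd79a* (0.94) on the first scale, and *Napsa* (0.88), *Cd37* (0.84), *Cd52* (0.84), *Lcp1* (0.84) and *Ms4a1* (0.83) on the second. These correlations describe mice that share libraries and differ in their mix of phases.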

How the data were processed

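GC B cells of 4 pools were profiled with 10X Genomics 5′ libraries, and other pools of the series were not used here. The authors deposited raw UMI counts of genes and hashtags for every cell (CellRanger 8.0.1 per the file headers; Cell Ranger 6.0.1, Seurat 5.1.0 and mm39 per the submitters' processing notes), filtered contigs, and a list that ties hashtags to mice and their groups. Following the methods of the study, day 7 of the list was taken as 0 h, day 9 as 48 h, day 10 as 72 h, C as CDK2hi and N as CDK2low.

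Cells were assigned to the mouse whose hashtags were exactly their positive ones (HTODemux in Seurat 5.3.0, quantile 0.99), which leaves out doublets between mice but not within a mouse. Cells needed at least 200 genes and under 10% mitochondrial UMIs, which kept 13625 of 13976, 10073 of 13187, 7448 of 7749 and 4385 of 4478 assigned cells in the larger, smaller, CDK2hi and CDK2low pools. Phases came from CellCycleScoring. The cells of a mouse were added up gene by gene, and edgeR 4.0.16 under R 4.3.3 gave the main test: its quasi-likelihood F, after filterByExpr and TMM scaling, with Benjamini-Hochberg adjustment over every gene tested and a threshold of 0.05. All 5 groups of the time course shared 1 fit with a term for the experiment, and the CDK2 populations were blocked by mouse, since the numbers of the list name the same animals. Differences between phases were fitted on sums per mouse and phase with the sample as block, chosen after seeing the data. Depth sets the precision of each sum, and mice were the replicates.

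Likeness was Pearson's r with the mean of the 3 classical chain genes and *Cd74*, on log2 CPM with a prior count of 2. Promoters were read from GRCm39 at the canonical transcripts of GENCODE M39. All 10 genes, the 3 genes of a list with the lowest adjusted p where it is described and the 5 most alike genes were to be named. Further list genes named (*Lgmn*, *Icam1* and *Rfxank* in the CDK2 comparison) and marker genes were chosen after their values were seen. The 10 genes and the lists were chosen with earlier results of these data known, so that no list is independent support. Alternatives were DESeq2 1.42.0, total UMIs as library size, no filter on low counts, no experiment term, only the groups compared, no filter on cells, B1-8hi pairing, thinned cells, another hashtag rule, each phase, each experiment, no block and each CDK2 mouse left out. Scripts were tested on simulated data. Python 3.11.15 with numpy 2.4.6 and pandas 2.3.3 was used for the rest.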

Additional observations from a re-analysis of the deposited data

Results flagged for a closer look

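In the groups of 4 to 7 mice within an experiment, 5 of 70 sets of values of a gene had a mouse far from the others by Dixon's criterion, which chance alone meets in about 5% of sets. In the larger experiment these were *H2-Ob* at 364 CPM in 1 mouse of 72 h with anti-DEC-OVA (others 309.8 to 315.5), *Ciita* at 337.5 (others 241.3 to 261) and *H2-Ob* at 464.9 (others 304.2 to 355.8) in the same mouse of 0 h, *H2-DMb2* at 687.1 in 1 untreated mouse of 48 h (others 636.3 to 641.4), and *H2-Oa* at 173.7 in another untreated mouse of 48 h (others 225.7 to 235.3). The mouse of 0 h had 68.3% G0-G1 cells, the highest share of the time course.

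The effect of treatment differed between 48 h and 72 h for all 10 genes by the interaction term. The change, on the log2 scale, was 0.285 for *H2-Aa*, 0.339 for *H2-Ab1*, 0.387 for *H2-Eb1*, 0.451 for *Cd74*, 0.38 for *H2-DMa*, 0.327 for *H2-DMb1*, 0.276 for *H2-DMb2*, 0.429 for *H2-Oa*, 0.488 for *H2-Ob* and 0.542 for *Ciita*. Within G0-G1 cells alone it was not called for any of the 10 genes.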

How the results depend on the processing

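Over the alternatives, 76 of 95 counts of called genes stayed within 1.5 times the reported count, and single genes kept direction and call in 844 cases, crossed the threshold in the same direction in 71 and changed sign in 35. Without the term for the experiment, called genes numbered 6 at 48 h, 0 at 72 h, 4 for treated mice between 48 h and 72 h, 0 for untreated mice and 2 for the change of effect. The medians over the 10 genes were then -0.45 at 48 h (-0.45 with the term), 0.37 for treated mice between 48 h and 72 h (0.40) and 0.37 for the change of effect (0.38). Of 10220 genes, 2680 were called at 48 h (4843 with the term), 217 at 72 h (874) and 3104 for treated mice between 48 h and 72 h (5019). For untreated mice 77 were called (451) and for the change of effect 1222 (3217). Cells thinned to equal UMIs gave 3 at 72 h, beside 423 of 9043 genes.

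G0-G1 cells alone gave 8 at 72 h and 0 for both the return and the change of effect, S cells 0 at 72 h and 0 for untreated mice, the smaller experiment 0 for each of these, only the groups compared 0 for untreated mice, and without 0 h replicate 6 it was 2 (added after seeing the data). Over all genes, G0-G1 cells gave 751, 466 and 266 of 8802, S cells 403 and 250 of 9128, and the smaller experiment 22 and 3 of 10334. For untreated mice only the groups compared gave 256 of 9750, and leaving out 0 h replicate 6 gave 420 of 10211. G2/M cells gave 6 for the CDK2 populations, beside 4410 of 8729 genes. With total UMIs as library size, the tests between phases called 1 (48 h, S), 2 (48 h, G2/M) and 4 (CDK2, S). Over all genes these tests called 161 of 9629, 293 of 9629 and 2334 of 9524. The cause of these changes was not tested. Single phases and experiments hold fewer cells or mice.

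Signs changed at 72 h in S cells (*H2-Aa* 0.030, *H2-Ab1* 0.057, *H2-Eb1* 0.024, *Cd74* 0.039), in G2/M cells (*Cd74* 0.0055, *Ciita* 0.026) and in the larger experiment alone (*H2-Eb1* 0.0012, *Cd74* 0.0072). In treated mice from 48 h to 72 h, G0-G1 cells gave *H2-DMa* -3.5e-05 and *H2-Oa* -0.11, and the change of effect in them was -0.020 for *H2-Aa* and -0.27 for *H2-Oa*. In untreated mice signs changed without the experiment term (*H2-Aa* -0.010), with thinned cells (*H2-Ab1* 0.0058, *H2-Eb1* 0.0059), in G0-G1 cells (*H2-Ab1* 0.048, *H2-Eb1* 0.037, *Cd74* 0.0080), in S cells (*H2-Aa* -0.039), in G2/M cells (*H2-DMa* 0.095, *H2-DMb2* 0.038), in the larger (*H2-DMa* 0.039) and smaller experiment (*H2-DMb2* 0.023), and without 0 h replicate 6 (*H2-Eb1* 0.025, *H2-DMa* 0.0096, *H2-DMb2* 0.013). None of these passed the test. In the CDK2 populations G2/M cells gave *H2-Aa* -0.62, *H2-Ab1* -0.45, *H2-Eb1* -0.033, *H2-DMa* -0.20, *H2-DMb1* -0.080, *H2-DMb2* -0.59, *H2-Oa* -0.043 and *Ciita* -0.25, and with total UMIs *Ciita* had 0.0094 between S and G0-G1 cells.

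The CDK2 comparison without the replicate block by mouse called 10 genes, as with it, and 10 with each mouse left out. Over all genes 7052 of 10120 were called without the block, and between 7199 and 7566 with a mouse left out. Leaving out immunoglobulin genes removed nothing, since 0 genes of the tables matched, and is not counted among the alternatives. Mice of the time course carry no pairing between groups. *H2-DMb1* had the fewest UMIs of the 10 genes, which limits its precision.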
